A study of Mus musculus with 9 samples.

Results

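The genes described here move water and ions across the cells of the salivary gland, and they were read in the submandibular gland (SMG) of adult male mice. The list holds 45 genes grouped by their known function, and drawn up with earlier results of these data known, in 7 roles: 5 water channels, 6 genes of chloride uptake and anion release, 6 potassium channel genes, 3 epithelial sodium channel subunits, 4 sodium pump subunits and regulators, 11 bicarbonate, proton and anion transporters and enzymes, and 10 genes of calcium release, entry and pumping. Of these, 40 were among the 17562 rows of the normalized table that the authors deposited. The other 5 (*Aqp4*, *Aqp8*, *Best2*, *Slc26a4* and *Atp12a*) had a row only in the unfiltered count table of 48733 rows. A filter on low counts left 39 of the 45 for testing, among 13842 genes in all. The 6 that were not tested were those 5 and *Aqp3*, none of which had more than 6 reads in any library, and *Aqp8* had 0 reads in all 9 libraries, which allows up to 3 reads in each.

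Bulk RNA was sequenced from the SMGs of 4 wild-type (WT) and 5 double knockout (DKO) mice on a C57BL/6 background, with 1 library per mouse and no other treatment. DKO mice lack *Hs3st3a1* and *Hs3st3b1*, whose enzymes add 3-O-sulfate groups to heparan sulfate chains, in every cell of the body. They carry a frameshift deletion made by zinc finger nucleases in exon 1 of *Hs3st3a1* beside a knockout allele of *Hs3st3b1* with a LacZ cassette. Several founder lines exist, and the sources used here do not say from which of them these mice came. The question was whether transcripts of the secretory machinery differed between the genotypes, and whether the genes used by acinar cells for secretion and those used by ducts for reabsorption stood apart in the same direction.

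Saliva is made in stages. Acinar cells take up chloride at their base through Slc12a2 and release it into the lumen through Ano1, a channel that opens when calcium leaves internal stores through inositol trisphosphate receptors. Potassium channels keep up the electrical drive, and water follows the salt through Aqp5. The ducts then take sodium and chloride back through the epithelial sodium channel and Cftr, without water, and add bicarbonate and potassium, so that the final saliva is dilute.

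Libraries held 17053747 to 37870519 counted reads. *Hs3st3a1* had 3 to 14 reads in WT and 0 in every DKO library, and *Hs3st3b1* had 67 to 216 in WT and 7 to 45 in DKO. The 20 most abundant genes took 52.9% to 58.7% of the reads in WT and 59.4% to 70.3% in DKO, so the scale of the libraries matters: with plain library sizes in place of edgeR's TMM factors, the median log2 fold change of all genes moved from 0.01 to -0.28. Values below are CPM, reads scaled to a common library size with the TMM factors, and fold changes are DKO over WT relative to that scale. Markers of several cell types stood apart with genotype too. The summed level of 7 serous acinar markers was 129672 to 200849 CPM in WT and 208659 to 350379 in DKO. That sum is mostly *Mucl2* and *Pip*, and of the 7 only *Pip* had groups that did not overlap, though all 7 had a log2 fold change above 0. *Agr2* had the smallest (0.14). *Dcpp1* had the largest (2.43) on scattered values, 0.879 to 14.8 CPM in WT and 0.275 to 98.9 in DKO, the highest in DKO replicate 1. The sum of 6 granular duct markers was 38566 to 70998 CPM in WT and 16283 to 32002 in DKO, mostly from *Klk1b26*. Its genes differed in direction: *Klk1b26*, *Klk1b22* and *Egf* were lower in every DKO library than in every WT library, *Ren1* overlapped, and *Klk1* had a log2 fold change of 0.58 and was called higher by DESeq2. The sum of 7 myoepithelial markers was 617 to 997 CPM in WT and 237 to 557 in DKO. For 5 striated and excretory duct markers the sums overlapped (372 to 449 CPM in WT, 315 to 388 in DKO), but *Krt7* (209 to 260 in WT, 148 to 180 in DKO) and *Krt19* (2.47 to 4.13 in WT, 0.871 to 2.37 in DKO) were lower in every DKO library and called by DESeq2. The sums of 5 ionocyte markers overlapped (79.1 to 84.6 CPM in WT, 58.8 to 83.3 in DKO), with only DKO replicate 4 within the WT range. All 5 had a log2 fold change below 0, and neither edgeR nor DESeq2 called any of them. No marker of these 5 lists was at 0 in all libraries, and their part in the results below was not tested. In bulk tissue, fewer cells of a type and less RNA per cell cannot be told apart. The sum of 4 parotid gland markers was 27.8 to 57.8 CPM in WT and 68.5 to 8105 in DKO. DKO replicate 1 had the 8105 CPM, against at most 99.2 in the other libraries. Of the 4, only *Bpifa2* had groups that did not overlap (4.42 to 26.5 CPM in WT, 43.3 to 7431 in DKO). The sums of 5 fibroblast markers overlapped (242 to 395 CPM in WT, 123 to 296 in DKO). All 5 had a log2 fold change below 0, and neither edgeR nor DESeq2 called any. The sum of 3 sublingual gland markers was 0.803 to 28.1 CPM in WT and 0.725 to 71.3 in DKO, the highest in DKO replicate 4. The part of these lists in the results was not tested.

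Levels of the transport genes spanned a wide range. Per kilobase of exon, *Aqp5* was the most abundant in WT (101 CPM per kb), followed by *Fxyd2* (92.5), *Scnn1b* (74.6), *Atp1b1* (69.1), *Atp2a3* (53.1), *Kcnk1* (49.9) and *Kcnn4* (47.6). In the DKO means *Aqp5* (143 CPM per kb) and *Fxyd2* (137) were again first, *Kcnn4* was at 74.4 and *Scnn1b* at 43.3. The lowest tested gene was *Slc4a4*, at 0.127 CPM per kb in WT and 0.0637 in DKO.

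**Figure D1:**
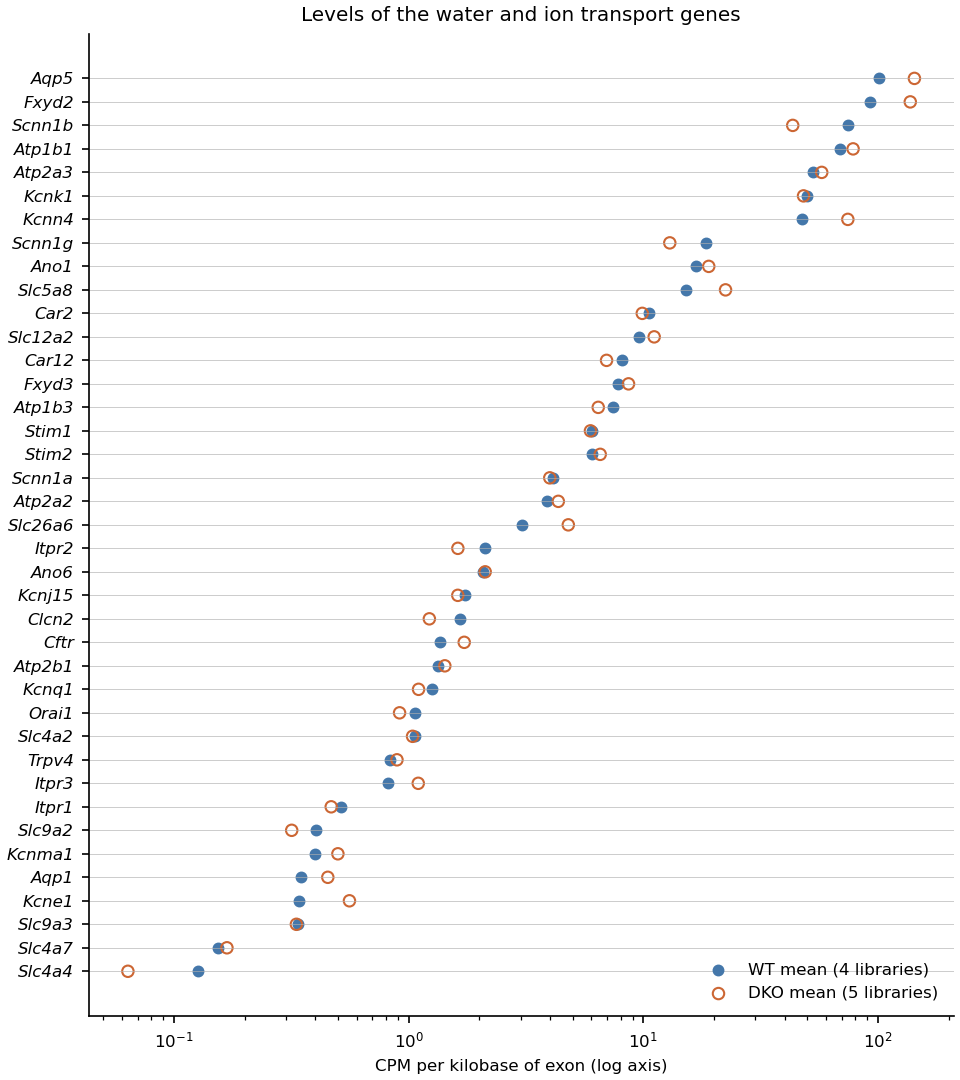
Mean level of 39 transport genes in WT (filled, 4 libraries) and DKO (open, 5 libraries), in CPM per kilobase of exon on a log axis, sorted by the WT mean. *Aqp5* (101 and 143 CPM per kb) and *Fxyd2* (92.5 and 137) lead in both genotypes, while the mean of *Scnn1b* is lower (74.6 and 43.3) and that of *Kcnn4* higher (47.6 and 74.4) in DKO.

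No transport gene passed the main test. By the quasi-likelihood test of edgeR, adjusted over all genes by the Benjamini-Hochberg method, 0 of 39 had an adjusted p under 0.05, where 0.629% of all tested genes did. At an unadjusted p under 0.05, edgeR gave 11 of 39 (6 higher and 5 lower in DKO), where 14.5% of all genes passed. By limma-voom with sample quality weights 0 of 39 passed (1.07% of all genes). DESeq2's Wald test called 4: *Kcnn4*, *Fxyd2* and *Slc5a8* were higher in DKO, where 1.77% of all genes were called higher, and *Scnn1b* was lower, where 2.69% were called lower. These DESeq2 calls depended on single libraries, as did those over all genes, which were 617 with all libraries and 266 to 888 with 1 left out. DESeq2 called 0 to 5 of the transport genes when 1 library was left out: 0 without WT replicate 1 or without WT replicate 3, where it called 266 and 307 of all genes, 1 (*Scnn1b*) without DKO replicate 5, where it called 512, and 2 without DKO replicate 2, DKO replicate 3 or WT replicate 4, where it called 467 to 513. Over these 9 fits *Scnn1b* was called in 6, *Slc5a8* in 5, *Kcnn4* in 4 and *Fxyd2* in 2, and *Slc26a6* (2), *Kcnma1* (1) and *Itpr2* (1) were called in some.

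All DKO libraries stood on 1 side of all WT libraries for 7 of the 39 genes, where 6.00% of all genes did. *Kcnn4*, *Slc5a8*, *Itpr3* and *Atp2a2* were higher (2.49% of all genes were) and *Scnn1b*, *Slc4a4* and *Itpr2* were lower (3.51%). On plain library sizes none of the 39 stood wholly higher (0.412% of all genes) and 4 stood wholly lower (10.2%), namely *Scnn1b*, *Slc4a4*, *Itpr2* and the chloride channel gene *Clcn2*. The median log2 fold change of the 39 genes was 0.10, beside 0.01 over all genes, and 21 lay above 0 and 18 below.

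**Figure D2:**
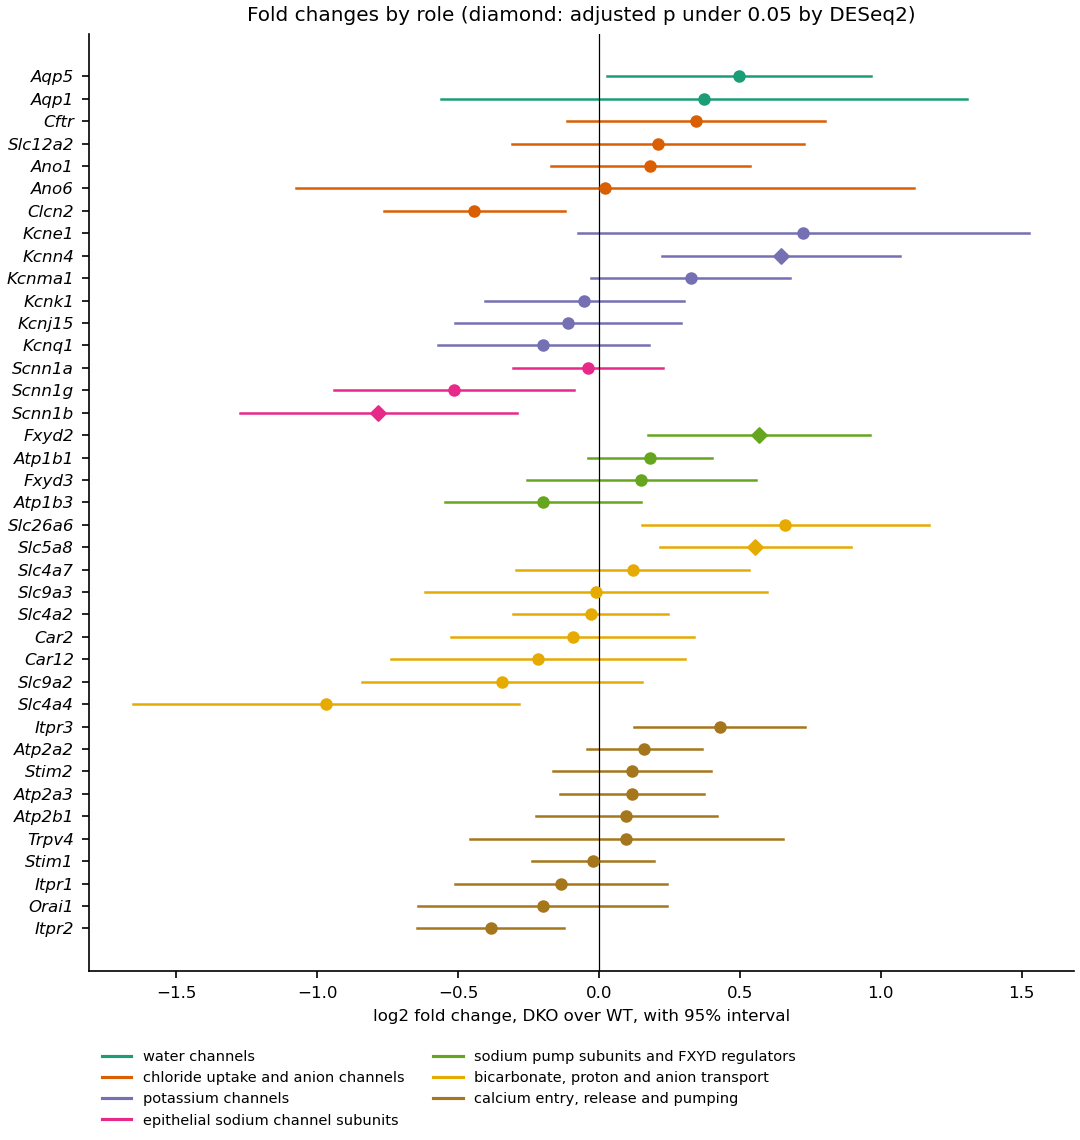
Log2 fold change of the 39 tested genes, DKO over WT, with 95% intervals from the edgeR fit, coloured by role. Diamonds mark the 4 genes with an adjusted p under 0.05 by DESeq2: *Kcnn4* (0.65), *Fxyd2* (0.57) and *Slc5a8* (0.56) to the right of 0 and *Scnn1b* (-0.78) to the left.

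The sequences just before the start sites of the genes DESeq2 called are shown for *Scnn1b*, *Kcnn4* and *Slc5a8*, with that of *Scnn1g*, which lies beside *Scnn1b* and codes for its partner subunit. They are the 250 bases before each gene's start, from RefSeq on GRCm38.p6, 5′ to 3′. *Fxyd2* has no entry in that table, which held 33 of the 45 genes. Each gene is on the plus strand, and each window ends at the start given by GENCODE M21. Capitals mark CANNTG, the E-box, to which basic helix-loop-helix factors such as the acinar factor Bhlha15 bind. The letters read the same on both strands, and no marked match overlaps another.
Scnn1b, chr7:121864788-121865037: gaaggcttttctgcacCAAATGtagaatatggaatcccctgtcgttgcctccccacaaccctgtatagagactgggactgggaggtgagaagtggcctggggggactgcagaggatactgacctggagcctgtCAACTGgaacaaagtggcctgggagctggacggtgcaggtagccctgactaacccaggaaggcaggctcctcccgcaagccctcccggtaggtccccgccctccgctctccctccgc
Scnn1g, chr7:121734229-121734478: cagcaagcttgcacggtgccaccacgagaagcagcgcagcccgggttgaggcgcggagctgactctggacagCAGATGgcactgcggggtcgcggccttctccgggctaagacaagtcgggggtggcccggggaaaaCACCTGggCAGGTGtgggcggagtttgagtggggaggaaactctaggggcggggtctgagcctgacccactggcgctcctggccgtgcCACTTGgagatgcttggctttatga
Kcnn4, chr7:24370013-24370262: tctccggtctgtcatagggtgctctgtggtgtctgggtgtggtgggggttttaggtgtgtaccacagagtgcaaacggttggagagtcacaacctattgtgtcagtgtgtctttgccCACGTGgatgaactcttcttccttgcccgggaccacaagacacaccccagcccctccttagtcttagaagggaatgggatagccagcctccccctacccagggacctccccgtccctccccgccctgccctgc
Slc5a8, chr10:88885742-88885991: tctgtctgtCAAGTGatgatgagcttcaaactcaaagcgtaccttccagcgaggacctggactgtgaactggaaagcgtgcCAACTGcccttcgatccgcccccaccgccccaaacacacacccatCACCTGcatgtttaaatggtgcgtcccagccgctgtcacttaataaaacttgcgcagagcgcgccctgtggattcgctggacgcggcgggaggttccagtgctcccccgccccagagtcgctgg
The E-box was found 2 times before *Scnn1b*, 4 times before *Scnn1g*, 1 time before *Kcnn4* and 3 times before *Slc5a8*. It is a common motif: 66.2% of the 32851 windows in the table held at least 1. The *Scnn1g* and *Slc5a8* windows held 16 and 17 CG dinucleotides and those of *Scnn1b* and *Kcnn4* held 7 and 6, beside a median of 6 over all windows. None of the 4 windows held TATAAA (12.4% of all windows, either strand), AGAACA (16.1%), the core of the element bound by steroid receptors of the mineralocorticoid type, or TGACGTCA (1.55%), the full cyclic AMP response element.

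Among the water channels, *Aqp5*, the apical channel of acinar cells, was at 188, 265, 293 and 308 CPM in WT replicates 1 to 4 and at 247, 303, 475, 355 and 479 CPM in DKO replicates 1 to 5. The highest values were those of DKO replicates 3 and 5, and the groups overlapped. Its log2 fold change was 0.50 (95% interval 0.03 to 0.97), with an adjusted p of 0.312 by edgeR and 0.203 by DESeq2. *Aqp1*, a channel known from endothelium, was far lower, at 0.348 CPM per kb in WT and 0.453 in DKO, and its log2 fold change of 0.37 had a wide interval (-0.56 to 1.30). *Aqp4* had 1 to 5 reads in each library, and *Aqp3* had 0 to 6 in WT and at most 1 in DKO.

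Of the genes of chloride uptake and release, *Slc12a2*, *Ano1* and *Cftr* had intervals that held 0, and that of *Clcn2* did not. *Slc12a2*, the basolateral sodium, potassium and chloride cotransporter, was at 97.3, 144, 95.6 and 83.8 CPM in WT and 135, 150, 61.5, 122 and 140 in DKO. DKO replicate 3 was the lowest of all 9 libraries, and the other DKO libraries lay between 122 and 150. *Ano1*, the calcium-activated chloride channel of the apical membrane, was at 78.6, 113, 106 and 120 CPM in WT and 116, 144, 86.7, 114 and 133 in DKO, with DKO replicate 3 again the lowest of its group. Log2 fold changes were 0.21 (95% interval -0.31 to 0.73) for *Slc12a2* and 0.18 (-0.17 to 0.54) for *Ano1*, and both turned negative on plain library sizes (-0.07 and -0.11), though above the median of all genes there. *Cftr*, the cyclic AMP-regulated anion channel of the duct, was at 10.0, 11.5, 9.04 and 11.7 CPM in WT and 15.7, 7.69, 16.1, 11.1 and 16.4 in DKO. The DKO values of *Cftr* held both the lowest and the highest of the 9 libraries, and its log2 fold change was 0.34 (-0.11 to 0.80). *Clcn2* was at 8.60 to 11.4 CPM in WT and 5.82 to 8.64 in DKO, so only DKO replicate 1 lay within the WT range, and its log2 fold change of -0.44 (95% interval -0.76 to -0.12) had an adjusted p of 0.184 by edgeR and 0.112 by DESeq2.

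The potassium channel genes parted. *Kcnn4* (ENSMUSG00000054342, chromosome 7, 24370263 to 24386690) codes for the intermediate-conductance channel that calcium opens, a main potassium exit of stimulated acinar cells. It was at 164, 326, 258 and 225 CPM in WT and 329, 358, 484, 330 and 403 in DKO. Each of the 5 DKO libraries was higher than each of the 4 WT libraries, although WT replicate 2 (326) came close to DKO replicates 1 and 4 (329 and 330). Means were 243 ± 67.8 (SD, n = 4) and 381 ± 65.0 (SD, n = 5), a 1.56-fold difference (log2 0.65, SE 0.19). The adjusted p was 0.138 by edgeR and 0.0257 by DESeq2, and it ranged from 0.0257 to 0.278 over 9 other settings. By edgeR it ran from 0.0519 to 0.377 with 1 library left out. On plain library sizes the groups overlapped.

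The other calcium-opened channel, the large-conductance *Kcnma1*, was at 5.46 to 9.29 CPM in WT and 7.81 to 9.07 in DKO, so every DKO value lay within the WT range. *Kcnk1*, a two-pore leak channel and the most abundant potassium channel gene of the list per kilobase in WT, was at 96.8, 87.3, 129 and 133 CPM in WT and 90.6, 95.1, 135, 119 and 98.4 in DKO. Its groups overlapped and its log2 fold change was -0.05 (95% interval -0.40 to 0.30). *Kcne1*, which codes for the partner subunit of the *Kcnq1* channel, had the largest fold change of this role (log2 0.73) on low and scattered values, 0.670 to 1.53 CPM in WT and 1.01 to 2.99 in DKO. *Kcnq1* and *Kcnj15* had log2 fold changes of -0.20 and -0.11. None of these 5 had an adjusted p under 0.05 by edgeR or DESeq2.

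The 3 subunits of the epithelial sodium channel, which takes sodium out of saliva at the apical membrane of the ducts, did not stand alike. *Scnn1b* (ENSMUSG00000030873, chromosome 7, 121865038 to 121918514), the beta subunit, was at 213, 185, 216 and 171 CPM in WT and 132, 114, 55.9, 152 and 116 in DKO. Every DKO library was below every WT library, and DKO replicate 3 was the lowest. Means were 196 ± 21.7 (SD, n = 4) and 114 ± 35.9 (SD, n = 5), 0.581-fold (log2 -0.78, SE 0.23). The adjusted p was 0.126 by edgeR and 0.0224 by DESeq2, with a range of 0.0224 to 0.187 over 9 other settings. By edgeR it ran from 0.0570 to 0.363 with 1 library left out. With 1 library left out, the adjusted p by DESeq2 ran from 0.000762 without DKO replicate 3 to 0.131 without WT replicate 1.

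*Scnn1g* (ENSMUSG00000000216, chromosome 7, 121734479 to 121768475), the gamma subunit, was at 69.5, 49.9, 61.0 and 41.1 CPM in WT and 49.7, 35.8, 25.1, 41.7 and 41.8 in DKO. Its groups overlapped, with WT replicate 4 among the DKO values. The log2 fold change was -0.51 (SE 0.19), with an adjusted p of 0.244 by edgeR and 0.165 by DESeq2. *Scnn1b* and *Scnn1g* lie on the same strand 96.6 kb apart, with 1 annotated gene between them, which is not protein-coding.

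*Scnn1a* (chromosome 6, 125320659 to 125344943), the alpha subunit, was at 15.0, 18.2, 16.1 and 18.6 CPM in WT and 18.6, 13.7, 18.3, 16.6 and 15.4 in DKO. The groups overlapped widely, and the log2 fold change was -0.04 (95% interval -0.31 to 0.23). The balance of the subunits within a library does not depend on its scale. There were 14.2, 10.2, 13.4 and 9.20 *Scnn1b* reads for each *Scnn1a* read in WT and 7.07, 8.35, 3.06, 9.18 and 7.56 in DKO, so the groups did not overlap but WT replicate 4 and DKO replicate 4 were nearly equal. The *Scnn1g* to *Scnn1a* ratio overlapped between the groups (2.21 to 4.65 in WT, 1.37 to 2.72 in DKO). These gene pairs were chosen after their values were seen, and no test was made of them. DKO replicate 3, the lowest in *Scnn1b* and *Scnn1g*, was also the lowest in the sum of the granular duct markers (16283 CPM) and in *Krt19* (0.871 CPM). Other duct markers went the other way in that library. It was the highest of all 9 libraries in *Klk1* (11887 CPM), *Ren1* (169), *Krt8* (75.1) and *Elf5* (60.2). Among the DKO libraries it was also the highest in *Cldn4* (82.7 CPM) and in the sum of the striated and excretory duct markers (388 CPM). The duct marker *Krt7* was lower in every DKO library than in every WT library. The part of these markers in the result was not tested.

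**Figure D3:**
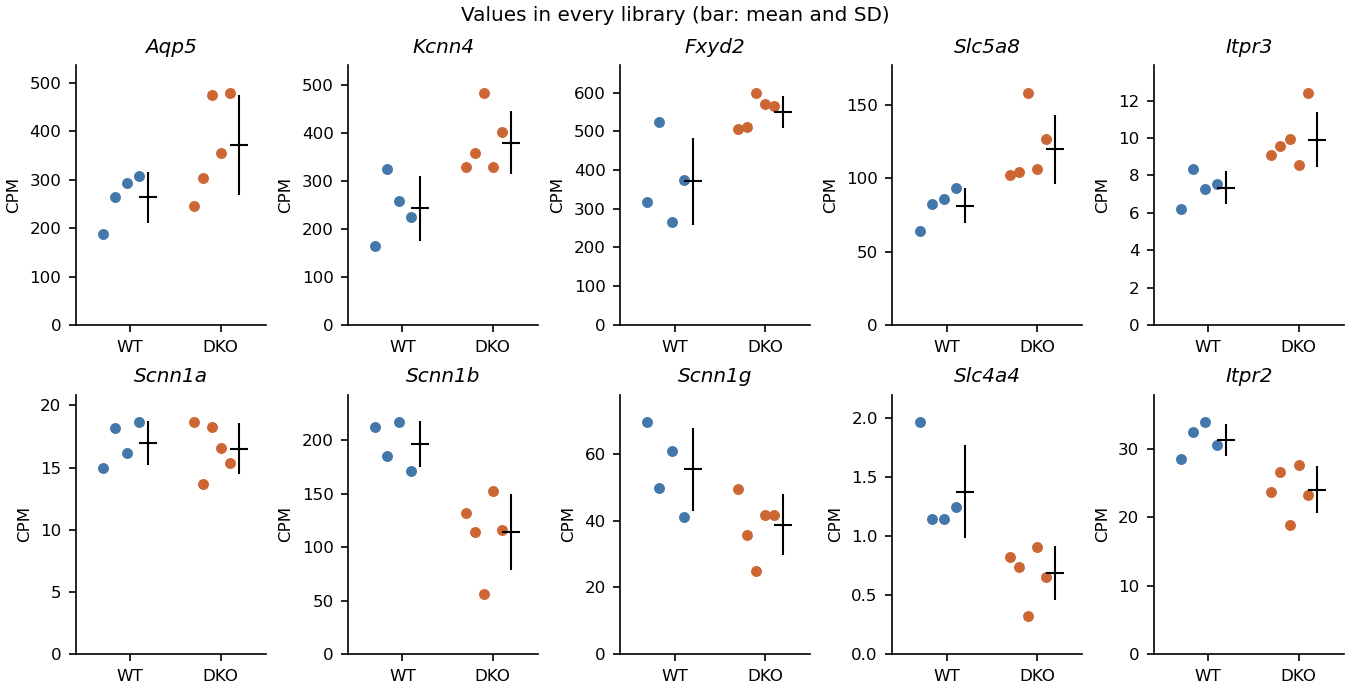
CPM of 10 transport genes in each WT (blue) and DKO (orange) library, points in replicate order from left to right, with the mean and SD of each group as a bar. *Kcnn4*, *Slc5a8* and *Itpr3* are higher and *Scnn1b*, *Slc4a4* and *Itpr2* lower in all 5 DKO libraries than in all 4 WT libraries, *Aqp5*, *Fxyd2* and *Scnn1g* overlap, and *Scnn1a* differs least.

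The sodium pump drives both secretion and reabsorption, and *Fxyd2* (ENSMUSG00000059412, chromosome 9, 45399669 to 45410278) codes for a small membrane protein that modulates it. *Fxyd2* was at 317, 525, 266 and 374 CPM in WT and 505, 512, 599, 570 and 564 in DKO. The DKO libraries lay close together and above all of WT but WT replicate 2 (525). Means were 371 ± 112 (SD, n = 4) and 550 ± 40.2 (SD, n = 5), 1.48-fold (log2 0.57, SE 0.18). The adjusted p was 0.164 by edgeR and 0.0362 by DESeq2, ranging from 0.0362 to 0.357 over 9 other settings. By edgeR it ran up to 0.451 with 1 library left out. Without WT replicate 2 it was 0.0280 by edgeR, the single edgeR call of any gene on the list when libraries were left out. The beta subunit genes *Atp1b1* and *Atp1b3* had log2 fold changes of 0.18 and -0.20, and *Fxyd3*, another regulator of the pump, had 0.15. *Fxyd3* shares 42.5% of its exonic bases with *Lgi4* and *Atp1b1* shares 18.7% with *Nme7*, both on the opposite strand, and reads of such pairs cannot be told apart without strand. Over the 9 libraries *Lgi4* had 112 reads against 9065 for *Fxyd3*, and *Nme7* had 1082 against 53779 for *Atp1b1*.

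Of the 9 bicarbonate, proton and anion genes tested, 3 had a log2 fold change above 0 and 6 below, with a median of -0.03. *Slc5a8* (ENSMUSG00000020062, chromosome 10, 88885992 to 88929515), a sodium-coupled transporter of lactate and other monocarboxylates, was at 64.3, 82.4, 85.4 and 93.0 CPM in WT and 102, 104, 158, 106 and 127 in DKO. All DKO libraries were above all WT libraries, with DKO replicate 3 the highest. Means were 81.3 ± 12.2 (SD, n = 4) and 119 ± 23.6 (SD, n = 5), 1.47-fold (log2 0.56, SE 0.16). The adjusted p was 0.114 by edgeR, the lowest of the 39 genes, and 0.0230 by DESeq2, with a range of 0.0230 to 0.301 over 9 other settings. By edgeR it ran from 0.0863 to 0.368 with 1 library left out. On plain library sizes the groups overlapped. *Slc5a8*, which like the epithelial channel carries sodium into the cell, thus stood opposite to *Scnn1b* and *Scnn1g*.

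*Slc4a4*, the electrogenic sodium bicarbonate cotransporter, had the largest fold change of the list on few reads, 29 to 52 per library in WT and 7 to 28 in DKO. It was at 1.96, 1.15, 1.15 and 1.24 CPM in WT and 0.820, 0.740, 0.321, 0.909 and 0.653 in DKO. Every DKO library was lower than every WT library, and WT replicate 1 stood above the rest. The log2 fold change was -0.97 (SE 0.31), with an adjusted p of 0.173 by edgeR and 0.0963 by DESeq2. *Slc26a6*, an exchanger of chloride for bicarbonate or oxalate, was at 12.8 to 21.8 CPM in WT and 15.6 to 37.3 in DKO (log2 0.66, SE 0.23), with only DKO replicate 1 inside the WT range. Its adjusted p was 0.213 by edgeR and 0.0949 by DESeq2. The other 6 genes (*Slc4a2*, *Slc4a7*, *Slc9a2*, *Slc9a3*, *Car2* and *Car12*), which exchange chloride or protons, bring in bicarbonate or hydrate carbon dioxide, had log2 fold changes of -0.34 to 0.12. *Slc4a2* shares 13.7% of its exonic bases with *Fastk* on the opposite strand, which had 12647 reads over the 9 libraries against 2062 for *Slc4a2*.

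A rise of calcium in the cell starts secretion, and it draws on internal stores and on entry from outside. *Stim1*, the sensor of empty stores, was at 54.2, 63.5, 69.3 and 63.9 CPM in WT and 60.4, 62.9, 58.4, 68.3 and 58.7 in DKO. Every DKO value of *Stim1* lay within the WT range, with a log2 fold change of -0.02 (95% interval -0.24 to 0.19). *Orai1*, the plasma membrane channel that Stim1 opens, was at 2.46, 2.06, 2.41 and 2.83 CPM in WT and 2.40, 1.93, 2.11, 2.61 and 1.45 in DKO, from 20 to 109 reads per library. Its groups overlapped (log2 -0.20, 95% interval -0.64 to 0.24). The second sensor gene, *Stim2*, and *Trpv4*, an osmotically gated calcium channel, had log2 fold changes of 0.12 and 0.10, the latter turning to -0.20 without DKO replicate 3.

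The receptors that let calcium out of the stores stood in opposite directions. *Itpr2* (ENSMUSG00000030287, chromosome 6, 146108299 to 146502223) was at 28.5, 32.5, 33.9 and 30.5 CPM in WT and 23.7, 26.6, 18.8, 27.6 and 23.3 in DKO. *Itpr3* (ENSMUSG00000042644, chromosome 17, 27057304 to 27122223) was at 6.20, 8.34, 7.25 and 7.55 CPM in WT and 9.11, 9.58, 9.94, 8.54 and 12.4 in DKO. All DKO libraries were lower than all WT libraries in *Itpr2* and higher in *Itpr3*, with the highest WT value of *Itpr3* (8.34) just below the lowest in DKO (8.54). Log2 fold changes were -0.38 (SE 0.12) and 0.43 (SE 0.14). The adjusted p for *Itpr2* was 0.156 by edgeR and 0.0733 by DESeq2, and for *Itpr3* it was 0.173 by edgeR and 0.0915 by DESeq2. With plain library sizes the groups still stood apart in *Itpr2* and overlapped in *Itpr3*. Within a library, whatever its scale, there were 0.218, 0.257, 0.214 and 0.248 *Itpr3* reads for each *Itpr2* read in WT and 0.384, 0.361, 0.528, 0.309 and 0.533 in DKO. The lowest DKO ratio was above the highest WT ratio, as it had to be. Both genes stood apart in opposite directions, so the ratio adds no support. This pair, too, was chosen after its values were seen, and no test was made. *Itpr1* had a log2 fold change of -0.14 and overlapping groups.

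Of the pumps that clear calcium, *Atp2a3*, the store pump with the highest level per kilobase of the calcium genes, was at 289, 272, 289 and 272 CPM in WT and 245, 298, 304, 342 and 333 in DKO. DKO replicate 1 was the lowest and the other 4 DKO libraries were above all of WT, with a log2 fold change of 0.12 (95% interval -0.14 to 0.37). *Atp2a2*, the widely expressed store pump, was at 24.7, 20.9, 24.3 and 24.6 CPM in WT and 26.3, 26.0, 26.3, 24.9 and 28.7 in DKO. Its groups stood apart by little (log2 0.16, 95% interval -0.04 to 0.36, adjusted p of 0.479 by edgeR). Scaled to plain library sizes, the groups of *Atp2a2* overlapped and its log2 fold change was -0.14, above the median of all genes there. The plasma membrane pump gene *Atp2b1* had a log2 fold change of 0.10. Over the 10 calcium genes the median was 0.10, with 6 above 0 and 4 below.

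Acinar secretion genes were set against duct reabsorption genes. The first list held *Aqp5*, *Slc12a2*, *Ano1*, *Clcn2*, *Kcnn4*, *Kcnma1*, *Itpr2*, *Itpr3*, *Stim1*, *Orai1* and *Atp2a3*, all 11 tested. Its median log2 fold change was 0.18, with 7 genes above 0 and 4 below. The second held the 3 sodium channel subunits, *Cftr*, *Slc9a2*, *Slc9a3*, *Slc26a4*, *Slc26a6*, *Slc5a8*, *Slc4a4*, *Atp12a* and *Car12*, of which 10 of 12 were tested. Its median was -0.13, with 3 genes above 0 and 7 below, beside the median of 0.01 over all genes. This second list is not of reabsorption alone, as *Slc4a4* (log2 -0.97), *Slc26a6* (0.66) and *Car12* (-0.22) handle bicarbonate, which ducts add. On plain library sizes the medians were -0.11 and -0.40, where that of all genes was -0.28.

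As the mean log2 CPM over the secretion genes less that over the reabsorption genes, relative to the WT mean, the WT libraries were at -0.16, 0.01, 0.09 and 0.07. The DKO libraries were at 0.16, 0.28, 0.40, 0.16 and 0.38. Each DKO library was above each WT library. Relative to the WT mean, the DKO libraries had a mean of 0.28 and an SD of 0.12 (n = 5). The SD of the WT libraries was 0.11 (n = 4). The secretion genes alone overlapped between the groups (-0.19 to 0.13 in WT, 0.01 to 0.22 in DKO), as did the reabsorption genes alone (-0.04 to 0.12 in WT, -0.39 to 0.00 in DKO), with DKO replicate 3 the lowest in the latter. No p is given for these lists, which were chosen with results of these data known. Not every gene went with its list. Log2 fold changes were below 0 for *Clcn2*, *Itpr2*, *Stim1* and *Orai1* among the secretion genes and above 0 for *Slc5a8*, *Slc26a6* and *Cftr* among the reabsorption genes. The summed serous acinar markers were at 129672 to 200849 CPM in WT and 208659 to 350379 in DKO. The granular duct markers were at 38566 to 70998 CPM in WT and 16283 to 32002 in DKO. These sums stood apart, in the directions of the list medians, while each list alone overlapped between the groups. Within the sums only *Pip* of the 7 acinar genes stood apart on its own, and *Klk1* of the 6 duct genes went the other way. Their part in the contrast was not tested.

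**Figure D4:**
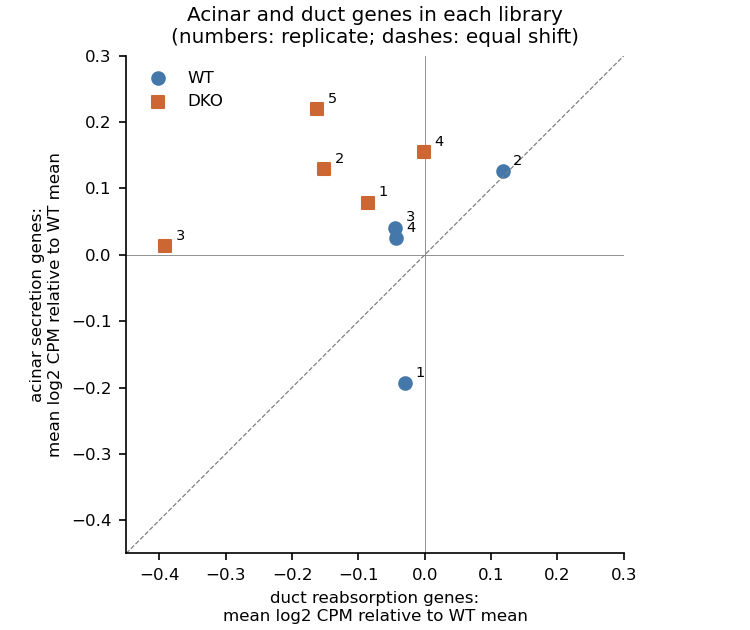
Mean log2 CPM of 11 acinar secretion genes (vertical axis) against that of 10 duct reabsorption genes (horizontal axis) in each library, both relative to the WT mean, with replicate numbers beside the points. All 5 DKO libraries (squares) lie farther above the dashed line of equal shift than any of the 4 WT libraries (circles): the difference is 0.16 to 0.40 in DKO and -0.16 to 0.09 in WT.

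A further 101 genes of the same pathways, none of them on the list, gave 67 that could be tested. By edgeR 1 of them was called (0.629% of all genes were), *Car13*, a cytosolic carbonic anhydrase, with means of 29.1 ± 7.89 CPM over the WT libraries (SD, n = 4) and 11.7 ± 3.55 over those of DKO (SD, n = 5). DKO stood at -1.31 on the log2 scale relative to WT, and the adjusted p of 0.0478 by edgeR ranged from 4.1e-05 to 0.198 over 18 other settings. DESeq2 called 10, with 2 higher in DKO, where 1.77% of all genes were, and 8 lower, where 2.69% were. The next smallest adjusted p by edgeR were those of *Atp4a*, the alpha subunit of the gastric proton pump (log2 -1.32, adjusted p of 0.0503 by edgeR), *Slc12a7*, a potassium and chloride cotransporter (log2 -0.64, 0.0506), *Kcnmb1*, the smooth muscle beta subunit of the large-conductance potassium channel (log2 -1.82, 0.0548), and *Sgk1* (log2 -1.24, 0.0619), a kinase that keeps sodium channels at the membrane. *Sgk1* was at 77.6, 51.1, 136 and 56.0 CPM in WT and 36.7, 35.7, 20.7, 43.7 and 32.6 in DKO, so the groups did not overlap. DKO replicate 3 was the lowest in *Sgk1*, as in *Scnn1b* and *Scnn1g*. *Kcnmb1* was lower in DKO together with the summed level of the 7 myoepithelial markers (617 to 997 CPM in WT, 237 to 557 in DKO), whose part in its level was not tested.

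DKO replicate 3 lay at an end of the DKO range more often than the other DKO libraries. It was the lowest of the 5 in 15 of the 39 genes and the highest in 12, together 27, and 11 to 15 for each of the others. Over all tested genes it was at an end in 52.8%, against 35.2% to 39.7% for the other DKO libraries. Without it, edgeR called 0 of the 39 genes and the log2 fold change of *Scnn1b* was -0.61.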

How the data were processed

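RNA of 9 adult male SMGs (4 WT, 5 DKO) was sequenced by the authors from unstranded Nextera XT libraries on a HiSeq2500. The authors deposited raw read counts per gene, the same counts after a filter on low rows, and signal values: the filtered table with each library scaled by its own single factor (TMM-scaled CPM). All 158058 signal values gave back whole counts within 0.001 reads (100%), equal to the filtered table, on which edgeR's test called 13 genes. The submitters' processing notes name STAR 2.5.2a, DESeq2, edgeR, limma and the builds GRCh38, GRCm38 and mm10 without roles. The counting tool is not given in the sources used here. No deposited column was left unused (0), and female libraries were not used here.

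The unfiltered counts were fitted in R 4.3.3 with edgeR 4.0.16 (TMM, filterByExpr with minimum count 10 and minimum total 15, legacy quasi-likelihood fit, genotype as the single term). The study's methods name DESeq2, which was run as an alternative (1.42.0), as was limma 3.58.1. Standard errors are the log2 fold change over the square root of F. CPM per kb divides by exon length in GENCODE M21 (GRCm38). Means over gene lists used log2 CPM with a prior count of 2. Exact permutation tests (two-sided, 126 groupings, smallest p 0.00794) were computed for the 39 tested genes. Groups that do not overlap fix that p at or near its smallest value, so it is given no weight here. The scripts were tested on simulated data. Python 3.11.15 with pandas 2.3.3, numpy 2.4.6, scipy 1.17.1 and matplotlib 3.10.9 made the summaries and plots.

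All 45 genes are named. Values in every library are given for those with an adjusted p under 0.05 by edgeR or DESeq2, those whose groups do not overlap, 11 genes of the central steps, and the most abundant gene of each role. Of the other pathway genes, those called by edgeR or with the 5 smallest adjusted p are named. The members and lists were chosen with earlier results of these data known. Each library is 1 mouse, so p-values measure the spread between mice. Library totals of 17053747 to 37870519 reads set the precision, and limits for counts of 0 cover counting error only. There were 18 alternative settings, and a further 9 added after seeing the data repeated DESeq2 without each library. The values of 1 granular duct marker are not reported here.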

Additional observations from a re-analysis of the deposited data

Results flagged for a closer look

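In 4 of the 78 groups tested over the 39 genes and both genotypes, 1 library stood far from the others of its genotype, judged by its gap to the nearest library over the whole range of the group. Chance flags about 1 group in 20. *Slc4a4* in WT replicate 1 was at 1.96 CPM, where the other WT libraries were at 1.15 to 1.24. *Car2* in DKO replicate 1 was at 33.8 CPM, where the other DKO libraries were at 20.2 to 22.8. That library also had the high parotid gland markers (8105 CPM in sum), whose part in its *Car2* level was not tested. *Trpv4* in DKO replicate 3 was at 6.42 CPM, where the others were at 2.59 to 3.46. *Atp2a2* in WT replicate 2 was at 20.9 CPM, where the others were at 24.3 to 24.7.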

How the results depend on the processing

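Calls of the transport genes depended on the tool and the libraries. DESeq2 called 4 in place of edgeR's 0, and 0 to 5 with 1 library left out (edgeR 0 to 1, the call being *Fxyd2* without WT replicate 2). Of all genes called, the other pathway genes were 1 of 87 by edgeR, 10 of 617 by DESeq2, 4 of 148 by limma-voom, 3 of 115 by edgeR's newer fit, 8 of 347 without a filter on low counts, 8 of 357 on plain library sizes, 0 of 5 without the 20 most abundant genes, 0 of 13 on the filtered table, and 0 to 10 with 1 library left out (0 to 441 of all genes). With the replicate number as a block, edgeR called 0 of all genes, including 0 of the transport genes and 0 of the other pathway genes, and DKO replicate 5, which has no WT partner, added nothing to the contrast. The labels do not say whether same-numbered samples are pairs, and the main fit did not treat them as such. Correlations of same-numbered deviations were 0.150, 0.298, 0.0739 and 0.0136, where those of other pairs ran from -0.222 to 0.0968. Not every library correlated best with its own number, and 4 such correlations cannot settle whether the samples are paired. On plain library sizes the medians were -0.11 for secretion, -0.40 for duct and -0.21 for calcium genes, and by limma-voom the calcium median was -0.0071. Leaving out 1 library gave medians of 0.11 to 0.28, -0.27 to -0.022 and 0.011 to 0.13.

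Small fold changes turned sign. Plain library sizes moved the median of all genes to -0.28, and the sign turned there for *Slc12a2* (-0.066), *Ano1* (-0.11), *Ano6* (-0.36), *Atp1b1* (-0.12), *Fxyd3* (-0.16), *Slc4a7* (-0.16), *Trpv4* (-0.23), *Stim2* (-0.16), *Atp2a2* (-0.14, exact permutation p of 0.214, beside 0.0159 with the TMM factors), *Atp2a3* (-0.18) and *Atp2b1* (-0.20), which but for *Ano6* all stayed above that median. It also turned by limma-voom for *Ano6* (-0.42), *Slc4a2* (0.027), *Slc9a3* (0.019), *Trpv4* (-0.10) and *Atp2b1* (-0.0025), and with the replicate block for *Ano6* (-0.13), *Fxyd3* (-0.0083) and *Slc9a3* (0.10). With 1 library left out, ranges crossed 0 for *Ano6* (-0.32 to 0.28), *Kcnk1* (-0.15 to 0.042), *Kcnj15* (-0.24 to 0.083), *Scnn1a* (-0.10 to 0.023), *Fxyd3* (-0.017 to 0.27), *Slc4a2* (-0.11 to 0.044), *Slc9a3* (-0.24 to 0.16), *Car2* (-0.25 to 0.088), *Trpv4* (-0.20 to 0.20) and *Stim1* (-0.087 to 0.029). Few reads limited *Slc4a4* (7 to 52 per library), *Aqp1* (8 to 55) and *Kcne1* (15 to 102). The cause of these moves was not tested. Of the 39 fold changes over 9 settings without a library left out, 328 kept direction and side of the threshold, 19 reversed, of which 11 on plain library sizes, and 4 passed it.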
